A study of Mus musculus with 6 samples.

Results

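Metallothioneins and acute-phase transcripts were represented by 4 genes, Mt1, Mt2, Serpina3n and Orm1, out of 18194 genes measured in quadriceps muscle. They were found as the probe sets that the array's annotation gives to exactly 1 of these genes, which yielded 5 of the 45101 probe sets: 2 for Mt1 and 1 for each of the others. The genes were chosen by their log2 intensities in these same 3 knockout and 3 control arrays, so their differences between the groups are described here and were not tested.

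Mt1 and Mt2 encode small cysteine-rich proteins that bind zinc and copper, and the zinc-sensing factor Mtf1 drives both genes through metal response elements in their promoters. Glucocorticoids, inflammatory cytokines and oxidative stress are also known to raise them. Serpina3n encodes a secreted serine protease inhibitor and Orm1 encodes alpha-1-acid glycoprotein, a plasma carrier protein. Both are acute-phase genes, which the liver in particular induces during inflammation under interleukin-6, STAT3, C/EBP factors and glucocorticoids.

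The knockout group held 3 samples from 2-month-old C57/Bl6 mice that carried a skeletal alpha-actin cre transgene together with floxed Pofut1 alleles. The control group held 3 samples of the same age and strain with that transgene and wild-type Pofut1, so both groups carried cre. Pofut1 encodes the enzyme that attaches O-linked fucose to EGF-like repeats, as in Notch receptors, and the comparison asked what its deletion changes in muscle. The promoter of the transgene acts in muscle fibres, so vessels, fat, nerve and immune cells of the same tissue are not its target, and in whole tissue fewer cells of a type and less RNA per cell cannot be told apart. The labels name no animal for any sample, so the spread within a group may in part be technical.

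Values were processed probe set intensities on a linear scale, from 37.2 to 16069, with array medians of 56.6 to 58.6. The array labelled control replicate 3 stood apart, with correlations of 0.940 to 0.945 with the other 5 arrays over all genes, while those 5 correlated with each other at 0.980 to 0.991. Its Gapdh 3' over 5' intensity ratio, a measure of RNA integrity and cDNA length, was 10.5, against 3.70 in knockout replicate 2 and 1.73 to 1.97 in the remaining arrays. Pofut1 read 220.1, 231.1 and 194.3 in the knockout and 301.4, 379.8 and 90.6 in the control group. The array labelled control replicate 3 thus went against its label, but it also held the lowest value of all arrays for 46.7% of genes above background. The reason for its low Pofut1 value was not tested. Xist and the Y-linked gene Eif2s3y gave a female pattern in knockout replicate 2 and control replicate 2 and a male pattern elsewhere. A value under 63.7, the 95th percentile of the mean intensity of 43 genes restricted to other tissues, is called background here. By its markers the tissue read as skeletal muscle, since 12 of 12 fibre markers lay above background and 0 of 12 measured hepatocyte markers had a mean above it. Limma called 0 of 18194 genes (0%) at an adjusted p under 0.05. At an unadjusted p under 0.05 it gave 469 genes (2.58%), and limma without a variance trend called 0 and gave 786.

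Promoter windows were available for 3 of the 4 genes, Mt1, Mt2 and Serpina3n, and these are shown. Both metallothionein genes followed each other across the arrays, and the values of Serpina3n ran in the same direction. For Orm1 there was no window, so its promoter was neither shown nor searched. The 250 bases before the annotated start are given 5′ to 3′, from RefSeq sequence of assembly GRCm38.p6. Capitals mark the core of a metal response element (TGCACNC or TGCGCNC) or a glucocorticoid receptor site (GNACA and TGTNC with 3 bases between them), on either strand.

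Mt1 (chr8:94178839-94179088, + strand): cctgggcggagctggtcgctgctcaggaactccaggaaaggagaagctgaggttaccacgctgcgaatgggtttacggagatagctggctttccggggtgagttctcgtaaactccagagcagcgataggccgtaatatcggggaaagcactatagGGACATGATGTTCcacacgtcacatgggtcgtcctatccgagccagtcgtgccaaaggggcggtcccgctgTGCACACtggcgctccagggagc

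Mt2 (chr8:94172368-94172617, + strand): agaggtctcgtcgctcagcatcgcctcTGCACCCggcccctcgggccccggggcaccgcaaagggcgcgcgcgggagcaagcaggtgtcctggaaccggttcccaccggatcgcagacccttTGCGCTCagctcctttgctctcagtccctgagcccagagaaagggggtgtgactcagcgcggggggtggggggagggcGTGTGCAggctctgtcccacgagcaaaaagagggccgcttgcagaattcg

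Serpina3n (chr12:104406458-104406707, + strand): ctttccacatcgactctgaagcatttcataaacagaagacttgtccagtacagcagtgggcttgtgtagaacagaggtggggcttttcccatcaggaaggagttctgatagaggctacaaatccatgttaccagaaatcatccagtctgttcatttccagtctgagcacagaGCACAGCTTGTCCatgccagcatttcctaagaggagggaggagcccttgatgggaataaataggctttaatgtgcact

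In the Mt2 window 3 metal response cores were found, at bases 223 to 217, 128 to 122 and 50 to 44 before the start, the last on the opposite strand. As many or more were present in 1.26% of 32851 windows of this length. In the Mt1 window the search found 1 core, at bases 23 to 17 before the start, and 21.4% of all windows hold at least 1. Sequence after the annotated start and further upstream was not searched, so these counts do not cover all elements of a promoter. A glucocorticoid receptor site lay 94 to 82 bases before the start of Mt1 and 78 to 66 bases before that of Serpina3n, and 0.387% of all windows hold one. Mt2 also held an antioxidant response core (TGACNNNGC, in 10.2% of windows) and a C/EBP site (TTGCNNAA, in 9.56%). Neither a STAT site (TTCNNNGAA, in 7.02%) nor a TATA box (TATAAA, in 12.4%) was matched in these 3 windows, and no matches overlapped. A match describes letters only and does not show binding. In RefSeq gene order on mouse chromosome 8 the genes run Mt4, Mt3, Mt2, Mt1, with no other protein-coding gene between them.

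Both metallothionein genes had lower mean values in the knockout, with values of the groups overlapping. The brightest probe set of Mt1 read 1973, 1894 and 2284 in knockout replicates 1 to 3, against 3146, 4818 and 2109 in control replicates 1 to 3. The 3 knockout values lay close together, and the array labelled control replicate 3 lay between them, while the other control arrays lay above all of them. Mt1 averaged 2051 ± 206 in knockout muscle and 3358 ± 1367 in control muscle (SD, n = 3 each). The difference of mean log2 values, knockout minus control, was -0.63 for Mt1, or 1.55-fold lower. Folds here come from mean log2 values, in which 1 high array counts for less than in the linear means. Without control replicate 2 the difference was -0.33, and without the array labelled control replicate 3 it was -0.93.

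Mt2 showed the same order of arrays at the top. Its intensities were 1125, 963 and 1016 in the knockout, against 1774, 4316 and 793 in the control group. Control replicate 2 stood far above every other array, and the array labelled control replicate 3 was the lowest of all 6. The mean was 1035 ± 82.3 in knockout muscle and 2294 ± 1818 in control muscle (SD, n = 3 each). The difference of mean log2 values, 10.01 in the knockout and 10.83 in the control group, was -0.82, or 1.77-fold lower. The size of this difference rests on control replicate 2, since without it the log2 difference was -0.20. Without the array labelled control replicate 3 it was -1.42. Of 10973 genes above background, 0.793% had a log2 difference as low as that of Mt2 or lower.

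Spread within the groups differed for both genes. The SD of log2 values of Mt2 was 0.11 in the knockout and 1.22 in the control group, and that of Mt1 was 0.14 in the knockout and 0.60 in the control group. Over genes above background the median SD was 0.18 in the knockout and 0.31 in the control group. A control SD as large as that of Mt2 was found in 1.5% of these genes, and one as large as that of Mt1 in 19.3%. The highest of the 3 control values of Mt2 was 5.45 times the lowest, against 1.17 times in the knockout.

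The other probe set of Mt1 was dim and did not share the difference. It read 59.9, 63.6 and 61.6 in the knockout and 50.1, 112.4 and 49.5 in the control group, so that 1 of its 6 values, that of control replicate 2, lay above background. Its log2 difference was -0.083. The bright Mt1 probe set carries the suffix that Affymetrix gives to probe sets able to match more than 1 related transcript, and how far it separates Mt1 from Mt2 was not checked. The neighbouring Mt3, the metallothionein of brain, read 52.0 to 57.0 in the knockout and 54.4 to 73.1 in the control group. Mt4, of squamous epithelium, read 39.3 to 41.3 in the knockout and 40.2 to 45.4 in the control group, at background in every array.

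Within arrays of 1 sex pattern the metallothionein differences had unequal sizes. Among male-pattern arrays Mt1 averaged 2129 in 2 knockout arrays and 2627 in 2 control arrays, with a log2 difference of -0.28, and Mt2 averaged 1070 in the knockout and 1284 in the control arrays, with -0.15. The female-pattern pair, with 1 array on each side, gave 2.54-fold lower Mt1 and 4.48-fold lower Mt2 in the knockout. The male-pattern values include the array labelled control replicate 3, and its share in the difference of sizes was not tested. The female-pattern folds rest on control replicate 2, the highest array for both genes. Their knockout side is knockout replicate 2, whose Gapdh 3' over 5' ratio was 3.70.

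**Figure D1:**
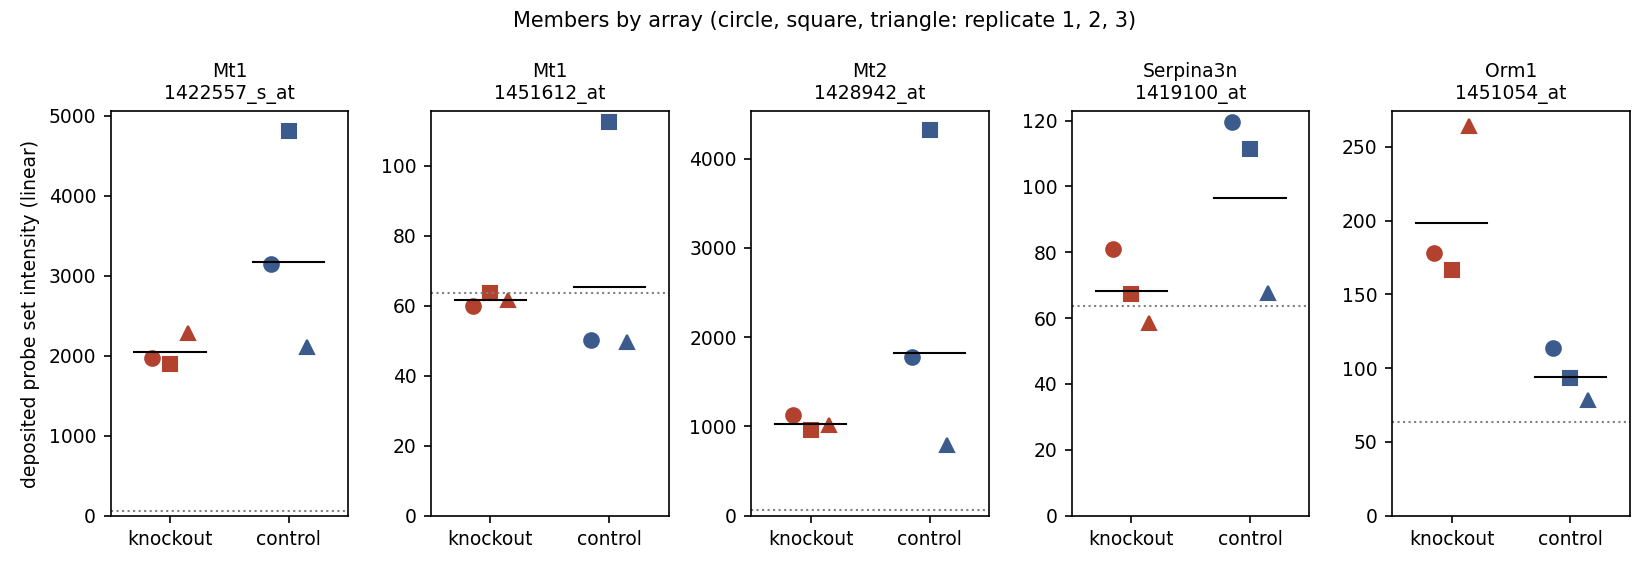
Deposited probe set intensity (linear axis from 0, a separate scale in each panel) of the 5 probe sets in 3 knockout (red, left) and 3 control (blue, right) arrays. Circles, squares and triangles are replicates 1, 2 and 3, bars are geometric means, and the dotted line is the background of 63.7. Control replicate 2 is the highest point for both metallothioneins, and Orm1 is the only one of the 5 whose groups do not overlap.

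Serpina3n was close to background and lower on average in the knockout. It read 81.0, 67.4 and 58.5 in the knockout, against 119.7, 111.3 and 67.5 in the control group. Control replicates 1 and 2 lay above all knockout values, and the array labelled control replicate 3 lay among them. Means were 69.0 ± 11.3 in knockout muscle and 99.5 ± 28.0 in control muscle (SD, n = 3 each). The difference of mean log2 values was -0.50, or 1.41-fold lower, and it was -0.76 without the array labelled control replicate 3. With 1 of 6 values below background and the highest at 119.7, the size of this difference is uncertain. Serpina3n lies at the end of a row of near-identical Serpina3 genes on chromosome 12, and the probe set may also read transcripts of these. Of 10 listed relatives 2 were measured, Serpina3a and Serpina3i, and 0 lay above background.

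Orm1 was higher in every knockout array than in any control array. Its intensities were 178.2, 166.5 and 264.0 in the knockout, against 113.5, 93.7 and 78.7 in the control group. Knockout replicate 3 was the highest value, and the array labelled control replicate 3 was the lowest. The mean was 203 ± 53.2 in knockout muscle and 95.3 ± 17.5 in control muscle (SD, n = 3 each). The difference of mean log2 values was 1.08, or 2.11-fold higher, and 0.392% of genes above background had one as large. Leaving out 1 array at a time gave log2 differences of 0.87 to 1.21. The male-pattern arrays gave 1.20 and the female-pattern pair 0.83. On chromosome 4 its near-identical relatives Orm3 and Orm2 follow it, and their own probe sets read 40.3 to 41.8 and 38.4 to 40.7 over all arrays, at background.

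Of the 4 genes, then, 3 had a lower mean in the knockout and 1 a higher mean, where 53.7% of all genes had a lower and 46.3% a higher mean. Groups did not overlap for 1 of the 4, which was higher, while 3.33% of all genes were without overlap and higher and 9.01% were without overlap in either direction. Without the array labelled control replicate 3 the groups were apart for 4 of 4, and then for 24.5% of all genes. That array held the lowest control value of all 4 genes, as it did for 58.9% of genes above background. The 3 genes that were lower and the 1 that was higher were chosen with these values known, and nothing is read from these counts.

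**Figure D2:**
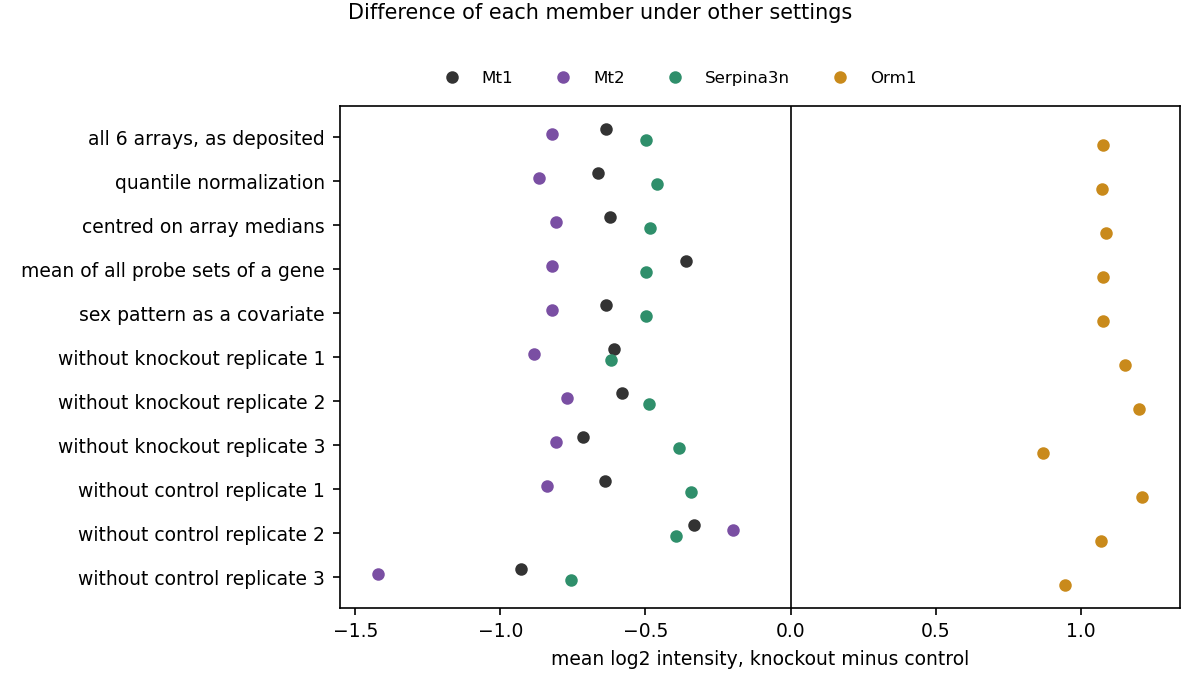
Mean log2 intensity, knockout minus control, of Mt1, Mt2, Serpina3n and Orm1 (horizontal axis) under each setting (vertical axis), 1 point per gene. Orm1 stays between 0.87 and 1.21, while Mt2 moves between -0.20 without control replicate 2 and -1.42 without the array labelled control replicate 3.

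The genes with the most similar patterns were sought by Pearson correlation of log2 intensities over the 6 arrays, among 1812 genes above background with an SD of at least 0.5. These correlations are descriptions, since points include the deviating array and the search ran over many genes. Mt2 was the gene closest to Mt1 (0.959, and 0.973 over 5 arrays without the array labelled control replicate 3). Among the 5 genes closest to each were S100a8 and S100a9, the subunits of calprotectin, an alarm protein of myeloid cells, with 0.935 and 0.902 to Mt1 and 0.976 and 0.977 to Mt2. S100a8 read 60.0, 52.1 and 60.3 in the knockout and 68.1, 158.2 and 49.1 in the control group. The small nucleolar RNA gene Snord104 was the closest to Mt2, at 0.994, and had 0.924 to Mt1. Slc7a2, a transporter of cationic amino acids, had 0.926 to Mt1. It read 583, 405 and 523 in the knockout and 808, 1148 and 636 in the control group, without overlap. The list for Mt2 ended with BC023105 (0.971) and the interferon-inducible GTPase gene Iigp1 (0.968), which read 290, 224 and 162 in the knockout and 358, 898 and 151 in the control group. For each of these genes control replicate 2 held the highest value, which follows largely from their choice by correlation.

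Control replicate 2 also had the highest summed level of 11 measured neutrophil markers, which include S100a8 and S100a9. The sum was 514.8 to 568.3 in the knockout and 567.2 to 755.4 in the control group, and 3 of the 11 were above background in any array. Without S100a8 and S100a9 the sum of the other 9 was 413.2, 390.3 and 415.8 in the knockout and 411.4, 408.0 and 454.4 in the control group. Most of these 9 were at background in every array, so their sum could hardly show a peak. Ngp, Camp, Mpo and Elane, made by immature neutrophils, read 38.7 to 45.4 over all arrays, at background. Macrophage markers summed to 7116 to 11820 in the knockout and 8391 to 13767 in the control group. The part of neutrophils and macrophages in the metallothionein values was not tested.

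Serpina3n was most similar to genes that, like it, were highest in control replicate 1. They were the myeloid lectin gene Clec4d (0.947), Serpinb1a, an inhibitor of neutrophil proteases (0.927), the metalloproteinase gene Mmp23 (0.923), the vesicular monoamine transporter gene Slc18a1 (0.914) and 2900009J06Rik (0.907). Serpinb1a read 155, 153 and 132 in the knockout and 337, 336 and 101 in the control group. Clec4d read 109, 66.1 and 51.2 in the knockout and 224, 131 and 49.6 in the control group. In these as in Serpina3n the lowest control value was that of the array labelled control replicate 3, which their choice by correlation makes likely.

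Orm1 was most similar to Lmod1, a leiomodin of smooth muscle (0.962), the amino acid transporter gene Slc36a2 (0.949), the heat shock protein gene Hspa2 (0.948), Prxl2c (0.942) and the pentose phosphate enzyme gene Tkt (0.908). All 5 had values without overlap and higher in the knockout, against 3.33% of all genes. Their choice by correlation with Orm1, whose groups were apart, largely fixed this, and nothing is read from it. Lmod1 read 157.8, 173.4 and 212.6 in the knockout and 92.3, 95.5 and 86.3 in the control group. Slc36a2 read 166.9, 166.6 and 313.8 in the knockout and 140.8, 102.2 and 55.3 in the control group, with the same arrays highest and lowest as for Orm1.

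**Figure D3:**
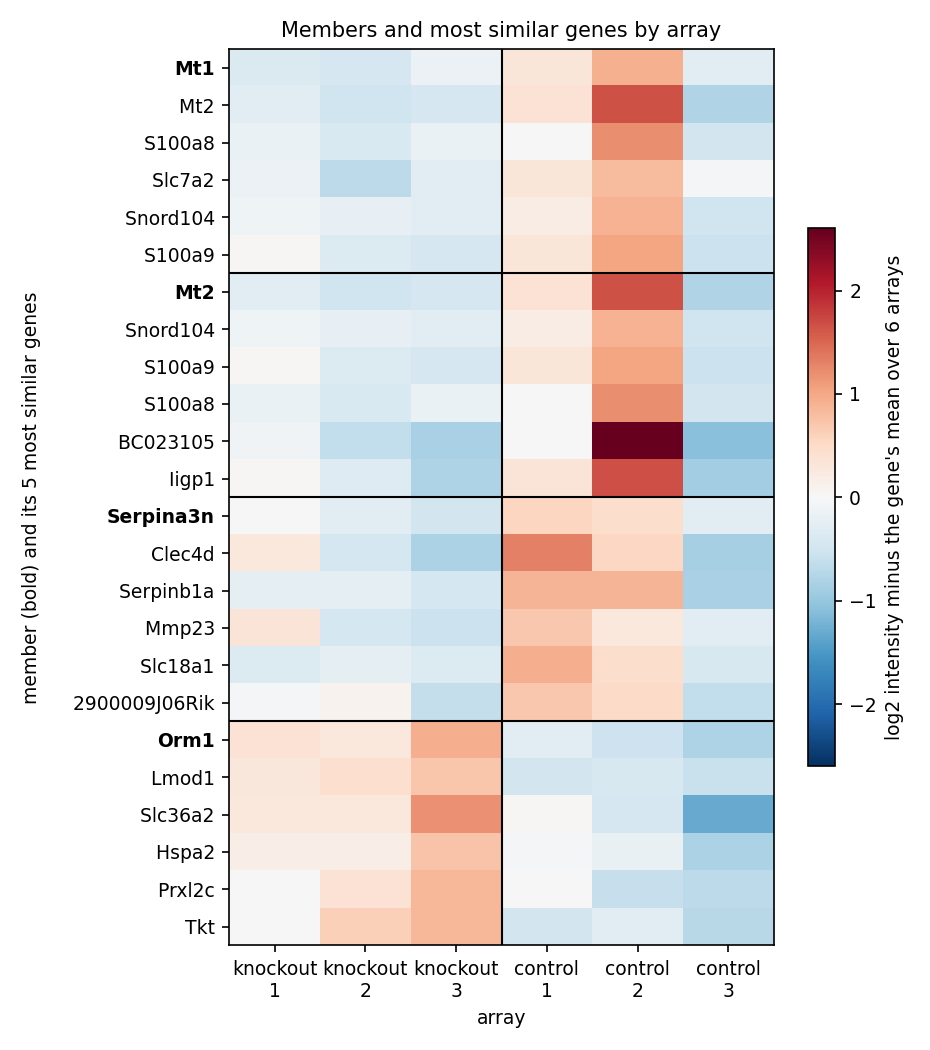
Log2 intensity minus the gene's own mean over 6 arrays (colour) for each of the 4 genes (bold) and the 5 genes most similar to it, in 3 knockout and 3 control arrays. Both metallothioneins and their most similar genes are darkest red in control replicate 2, and Orm1 and its most similar genes are redder in the knockout than in the control group, with knockout replicate 1 near white for Prxl2c and Tkt.

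Markers of adipocytes, which are known to make Orm1, had higher summed levels in the knockout arrays. The summed level of 10 measured adipocyte markers was 13439 to 17960 in the knockout and 10957 to 12930 in the control group. Such sums weigh the brightest markers most, and the lowest was that of the array labelled control replicate 3. A higher mean in the knockout was found for 10 of 10, against 46.3% of all genes, and the groups did not overlap for 1 of the 10. All 10 lay above background, which many of all genes did not, so that share is not a like measure. Adiponectin, Adipoq, read 766, 335 and 1343 in the knockout and 963, 549 and 195 in the control group, with overlap, and its highest and lowest arrays were those of Orm1. Smooth muscle and pericyte markers, Lmod1 among them, summed to 9491 to 10660 in the knockout and 9242 to 10136 in the control group. Hepatocyte markers summed to 519.3 to 601.2 in the knockout and 515.4 to 808.3 in the control group. Albumin, Alb, read 47.8, 67.9 and 49.5 in the knockout and 50.7, 50.4 and 56.1 in the control group, so that knockout replicate 2 alone was above background. Of the 12 hepatocyte markers 6 were above background in some array, among them Cyp3a11, at 200 in the array labelled control replicate 3 and at most 40.0 elsewhere. The part of fat and vessel cells in the Orm1 values was not tested.

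Genes of zinc handling had no common direction. Of 24 measured genes, which are Mtf1, zinc exporters and importers and the other metallothioneins, 15 had higher and 9 lower means in the knockout. Their median log2 difference was 0.06, against -0.01 over all genes, and limma called 0 of them in either direction. Mtf1 itself read 754, 556 and 765 in the knockout and 794, 803 and 393 in the control group. Slc30a1, the zinc exporter that Mtf1 also drives, read 529, 435 and 492 in the knockout and 493, 593 and 200 in the control group. Both genes were chosen after their values were seen. The part of Mtf1 and zinc in the metallothionein values was not tested. The importer gene Slc39a8 had a log2 difference of 0.23 ± 0.11, the transporter gene Slc30a5 had 0.40 ± 0.26 and Slc39a13 had -0.26 ± 0.18 (SE, limma, adjusted p = 0.971 for each).

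Other acute-phase genes were mostly at background in this muscle. Of 26 measured, 9 lay above it, and 12 had higher and 14 lower means in the knockout, with a median log2 difference of -0.01 and 0 called by limma. Ceruloplasmin, Cp, had -0.52 ± 0.26, the pentraxin gene Ptx3 had 0.80 ± 0.48 and Lrg1, a secreted leucine-rich glycoprotein, had -0.42 ± 0.26 (SE, limma, adjusted p = 0.971 for each). Haptoglobin, Hp, read 212, 80.9 and 394 in the knockout and 467, 325 and 272 in the control group. Serum amyloid A, Saa1, whose probe set may also read the close relative Saa2, exceeded background in control replicate 2 alone, at 107.9, against 54.1 to 60.5 in the knockout and 48.0 and 56.1 in the other control arrays.

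Cytokine signalling genes upstream of the acute phase did not pass either. Of 27 genes of interleukin-6, STAT3 and C/EBP signalling 9 had higher and 18 lower means, with a median of -0.04 and 0 called by limma. Jak2, a kinase of cytokine receptors, had a log2 difference of -0.30 ± 0.14, the NF-kappaB subunit gene Rela had 0.52 ± 0.42 and Cebpd had 0.46 ± 0.37 (SE, limma, adjusted p = 0.971 for each). Il6 read 38.1 to 38.9 over all arrays, at background. Socs3, which STAT3 induces, read 102, 275 and 87.6 in the knockout and 565, 149 and 132 in the control group. Socs3 was chosen after its values were seen and varied widely within both groups. The part of this signalling in the values of the 4 genes was not tested.

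Genes known to respond to glucocorticoids had mostly higher means, opposite to the metallothioneins, and a link between them was not tested. Of 23 measured, 17 were higher and 6 lower, with a median log2 difference of 0.24 against -0.01 over all genes, and 0 were called by limma. Of the 23, 22 lay above background, against 10973 of 18194 genes, so the median over all genes is not a like measure. The list median was 0.06 without the array labelled control replicate 3. Per1, a clock repressor, had 1.14 ± 0.38, the kinase gene Sgk1 had 0.33 ± 0.12 and Ddit4, an inhibitor of mTORC1, had 1.63 ± 0.63 (SE, limma, adjusted p = 0.971 for each). Fkbp5, a chaperone of the receptor, ran the other way at 290, 307 and 350 in the knockout and 551, 326 and 511 in the control group. The receptor gene Nr3c1 read 1614, 1563 and 949 in the knockout and 1137, 1027 and 1019 in the control group.

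Antioxidant genes were evenly split. Of 21 measured genes of the Nrf2 pathway and its surroundings 11 had higher and 10 lower means, with a median of 0.015 and 0 called by limma. Mitochondrial superoxide dismutase, Sod2, had a log2 difference of -0.26 ± 0.10, the thioredoxin reductase gene Txnrd1 had -0.52 ± 0.28 and Gpx1, a glutathione peroxidase, had -0.27 ± 0.15 (SE, limma, adjusted p = 0.971 for each). The targets Nqo1 and Gclc, had log2 differences of 0.24 and 0.05, with overlap between the groups.

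**Figure D4:**
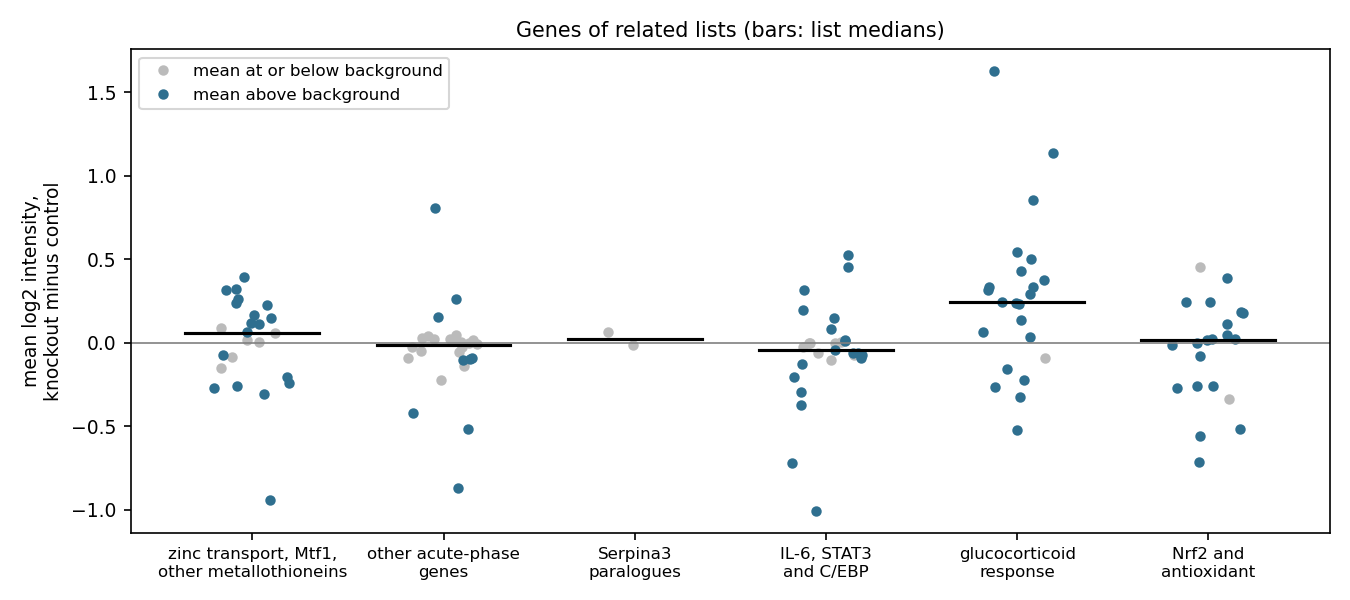
Mean log2 intensity, knockout minus control, of every measured gene of 6 related lists, without the 4 genes themselves. Blue points have a mean above background, grey points do not, and bars are list medians, which lie between -0.04 and 0.24.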

How the data were processed

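RNA of 6 quadriceps samples was measured on 1 Affymetrix mouse array each. The deposited values are probe set intensities, made by the authors with GCOS and RMA per the submitters' processing notes. Versions and the final scaling are not stated there, and the values themselves, up to 16069, show a linear scale. RMA compresses differences of dim genes. The platform annotation gave 34958 probe sets 1 gene symbol and 932 several, and did not list 9211. Each of 18194 genes was taken from its brightest probe set of those naming 1 gene.

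Log2 intensities, without a pseudocount, were compared between groups in limma 3.58.1 under R 4.3.3. The model had group alone, a variance trend and Benjamini-Hochberg adjustment over all genes at 0.05. It was also run on simulated data with independent noise and no array standing apart, which does not cover the conditions of these data. The number of arrays limits the precision. Motifs were searched with Python 3.11.15. Members, lists and tests were chosen with earlier results of these data known. Besides the 4 members and Pofut1, the rule named the 5 most similar genes of each member and, from each list, the 3 genes above background with the smallest p. Others were chosen after their values were seen, among them Mtf1, Slc30a1, Hp, Saa1, Il6, Socs3, Fkbp5, Nr3c1, Nqo1, Gclc, Adipoq and Alb.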

Additional observations from a re-analysis of the deposited data

How the results depend on the processing

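The count of genes past the threshold was 0 under all 14 alternatives: quantile normalization, centring on array medians, the mean of probe sets, the replicate block, sex pattern as a covariate, only genes above background, no variance trend, array weights and leaving out each array (lowest 0, highest 0). The lowest adjusted p came with array weights, at 0.0579, where 1854 genes had an unadjusted p under 0.05. That count was 786 without the variance trend, 377 with the replicate block, 284 without knockout replicate 1, 276 without knockout replicate 2, 284 without knockout replicate 3 and 1090 without control replicate 3. Of 45 alternative differences of the 4 genes, 44 moved by less than the pooled SD within groups and none changed sign. The exception was the dim probe set of Mt1, at -0.083. For Mt2 the pooled SD was 0.87, larger than its difference of -0.82, so a complete loss of that difference would also have counted as small. For the 3 genes with 1 probe set the mean of probe sets could not move the value. The count of 44 is thus no measure of robustness. With both Mt1 probe sets averaged the value was -0.36. Leaving out 1 array gave -0.93 to -0.33 for Mt1, -1.42 to -0.20 for Mt2, -0.76 to -0.34 for Serpina3n and 0.87 to 1.21 for Orm1. The replicate block and the sex covariate, being balanced, left the differences at -0.63, -0.82, -0.50 and 1.08. Same-numbered arrays deviated from their group means with correlations of 0.194, -0.146 and -0.114, and they shared their sex pattern. Groups this small, with control replicate 3 standing apart, cannot decide whether the numbers pair the samples. All 48 alternative list medians moved by less than their spread, but that spread was larger than each list median itself. Signal close to background limits what Serpina3n and the dim Mt1 probe set can show.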

Other observations

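Of 21 measured antioxidant genes 8 had their highest value in control replicate 2, where Mt1 and Mt2 were highest. Knockout replicates 1 to 3 held the highest value of 2, 3 and 1 of them, and control replicates 1 and 3 that of 3 and 4. Over genes above background, control replicate 2 held the highest of the 3 control values in 35.7%. The share with their highest value of all arrays there was not computed, and nothing is read from the count of 8. Of the 8, Hmox1 and Txnrd1 are given here and were chosen after their values were seen. Hmox1, heme oxygenase, read 119, 62.6 and 207 in the knockout and 315, 379 and 56.7 in the control group. Txnrd1 read 1424, 891 and 1610 in the knockout and 1608, 2439 and 1532 in the control group. In both genes control replicate 2 was the highest and the array labelled control replicate 3 the lowest control value, and the groups overlapped.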
